A study of Homo sapiens with 6 samples.

Results

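The BCL2 family, the caspases and the inhibitors of apoptosis are the core proteins of programmed cell death. The set described here holds 33 genes named by symbol, and all 33 were found among the 61155 gene symbols counted. RNA was sequenced from MDA-MB-231, a triple-negative breast cancer cell line of human origin. There were 3 control libraries and 3 after knockdown of VASP, an actin-binding protein that promotes filament growth. All cells were grown in EMEM with FBS, human recombinant insulin and nonessential amino acids, and total RNA was taken 48 hours after transfection. The titles call the groups plko and shVASP, names of short hairpin vectors, while the sample characteristics and the treatment protocol call them negative control siRNA and VASP siRNA, given by transient transfection with a lipid reagent. The grouping is the same by either set of names, but the labels leave the reagent itself unsettled. The stated question was what loss of VASP does to the RNA of these cells.

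Apoptosis is decided at the outer membrane of the mitochondrion. Survival proteins such as BCL2, BCL-xL (gene BCL2L1) and MCL1 hold the pore-forming effectors BAX and BAK (gene BAK1) in check, and the BH3-only proteins, such as BIM (gene BCL2L11), PUMA (gene BBC3) and NOXA (gene PMAIP1), bind the survival proteins or the effectors and release that hold. Once the membrane is open, cytochrome c meets APAF1 to form the apoptosome, which activates caspase-9, while death receptors at the cell surface activate caspase-8 through FADD. Inhibitors of apoptosis act further down on caspases and on receptor signalling. RNA levels report only 1 layer of this system, since many of these proteins are controlled by cleavage, phosphorylation, localisation and degradation.

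The libraries held 28856610 to 30055503 counted fragments each. The column names of the 3 control libraries all extend the title of 1 control sample, so they may be repeats of 1 culture, and the control SDs and p-values below may then rest on technical spread. VASP itself, the check of the labels, had 4544, 5036 and 4708 counts in the control libraries against 396, 379 and 360 after knockdown (edgeR quasi-likelihood test, log2 fold change -3.69, Benjamini-Hochberg adjusted p = 8.3e-24, n = 3 per group). VIM, the mesenchymal filament typical of this line, had 47597 to 51433 counts in all 6 libraries, and all 10 mesenchymal markers passed the count filter. Of 10 luminal markers, listed as genes this line should lack, CDH1 and PGR had at most 3 counts in any library, and the other 8 passed the count filter. Of these 8 the keratins KRT8 (15011 to 16199 counts) and KRT18 (6178 to 7192) were abundant, so that listing did not hold for them. ERBB3, FOXA1, EPCAM and ESRP1 had 141 to 646 counts, and ESR1 and GATA3 had 15 to 24. At an adjusted p under 0.05 in edgeR, where 37.2% of all tested genes were called, 1 of the 10 mesenchymal markers rose and 3 fell (40%), among them FN1 with a log2 fold change of -0.83. None of the 8 luminal markers tested was called. Of 2 leukocyte markers tested 1 rose (LAPTM5), of 2 endothelial markers 1 fell (PECAM1), and of 2 fibroblast markers 0 were called. Of the leukocyte markers PTPRC had 0 to 4 counts, and the summed level of the 8 genes was 5.15 to 6.79 CPM (TMM-scaled CPM, counts over the effective library size) in control and 5.96 to 8.22 CPM in knockdown libraries. The 5 endothelial markers summed to 6.84 to 7.30 CPM against 6.06 to 6.36 CPM, and the 6 fibroblast markers, of which DCN and LUM were at 0, to 6.40 to 7.90 CPM against 6.81 to 7.31 CPM. The part of these markers in the results below was not tested. In bulk RNA, fewer cells of a kind and less RNA per cell cannot be told apart.

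The promoters of the 3 members whose change exceeded 1.2-fold in a test against that size are printed first. They are PMAIP1, BIRC3 and CYCS, and all 3 rose. Each line gives the 250 bases before the transcription start in RefSeq (GRCh38.p14), 5′ to 3′ on the gene's strand. PMAIP1 lies at chr18:59899746-59899995 (plus strand), BIRC3 at chr11:102317234-102317483 (plus strand) and CYCS at chr7:25125261-25125510 (minus strand). Capitals mark matches to a GC box (GGGCGG), a cyclic AMP response core (TGACGT) or a kappa B motif, on either strand.
PMAIP1: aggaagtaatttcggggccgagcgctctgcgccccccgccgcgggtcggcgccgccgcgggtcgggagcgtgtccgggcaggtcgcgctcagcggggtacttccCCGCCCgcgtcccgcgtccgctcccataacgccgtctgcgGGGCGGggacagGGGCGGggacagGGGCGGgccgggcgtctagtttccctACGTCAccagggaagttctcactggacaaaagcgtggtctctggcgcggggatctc
BIRC3: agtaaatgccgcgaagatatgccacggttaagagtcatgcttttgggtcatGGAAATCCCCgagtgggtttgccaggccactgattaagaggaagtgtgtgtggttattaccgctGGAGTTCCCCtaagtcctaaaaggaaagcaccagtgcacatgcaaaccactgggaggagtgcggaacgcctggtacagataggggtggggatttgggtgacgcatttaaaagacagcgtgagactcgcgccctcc
CYCS: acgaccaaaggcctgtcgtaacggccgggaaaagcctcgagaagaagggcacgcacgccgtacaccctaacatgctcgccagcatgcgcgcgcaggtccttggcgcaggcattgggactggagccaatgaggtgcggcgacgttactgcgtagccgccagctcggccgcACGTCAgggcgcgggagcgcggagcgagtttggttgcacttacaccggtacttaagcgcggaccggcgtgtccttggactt

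In the PMAIP1 window the response core began 56 bases before the start, in the reverse orientation, and 4 GC boxes began between 146 and 82 bases before it. BIRC3 held kappa B matches 199 and 135 bases before the start, while CYCS held the response core alone, 81 bases before the start. Windows were given for 27 of the 33 members, not for BCL2L2, MCL1, BIK, BNIP3L, CASP10 and TRADD, and some members had several, 47 in all. Windows of the same member can overlap and hold the same match, as for the response core in BAD and BIRC2. Counts of windows are therefore not counts of separate sites. A kappa B match was present in 4 of the 47 windows, beside 9.95% of 34941 promoter windows of this length. They belong to BIRC3, BMF, CASP2 and CFLAR, of which 1 rose and 2 fell. The response core was present in 6 windows (7.09% of all windows), of BAD, BIRC2, CYCS and PMAIP1, of which 3 rose and 1 fell. A GC box was present in 31 windows (42.5% of all), of 21 members, of which 5 rose and 6 fell. An E-box (CACGTG) was found in 5 windows (6.32% of all), of BAX, BBC3, BID and BNIP3, of which 0 rose and 2 fell. An NRF1 motif was found in 5 windows (7.11% of all), of BID, BNIP3, CASP2 and FADD, of which 0 rose and 2 fell. A FOXO motif (GTAAACA) was found in 1 window (2.98% of all), that of BCL2L11, which rose. These motifs were chosen after the expression values were seen. Their matches describe the letters in these windows and were not tested against the expression changes.

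Of the 33 members 32 had enough counts to be tested. BCL2A1, a survival protein of blood cells, was not tested, with 10, 2 and 0 counts in control and 2, 4 and 4 in knockdown libraries. At an adjusted p under 0.05, 9 members rose (BCL2, BCL2L2, BAK1, BCL2L11, PMAIP1, BIRC2, BIRC3, XIAP and CYCS) and 7 fell (BAD, BID, BMF, BBC3, APAF1, CFLAR and FADD). These 16 are 50% of the tested members. Over all 16633 tested genes 37.2% were called, 18.9% as higher and 18.3% as lower. The changes were small: the called members moved by 1.12-fold to 1.51-fold. The median log2 fold change was 0.02 over the 32 members and -0.01 over all tested genes, and the median size, without sign, was 0.21 against 0.19.

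When the test asked for a change beyond 1.2-fold, 3 members passed, all higher, against 5.73% of all genes (1.95% higher and 3.78% lower). DESeq2, another count model, called 10 members higher and 7 lower, with MCL1 as the addition, where its calls over all genes came to 31.1% (16.3% higher and 14.7% lower). In 11 members every knockdown library was above every control library, and in 7 every one was below, by TMM-scaled CPM. That pattern held for 47.6% of all tested genes, 24.1% upward and 23.5% downward.

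The direction of change tended to go with the base composition of the transcript. The 9 members that rose had a median GC content of 41.6%, the 7 that fell 54.8%, and all tested genes 47.9%. The ranges overlapped, from 34.75% to 58.8% in members that rose and from 41.7% to 69.7% in those that fell. Across the 32 members GC content and log2 fold change had a Spearman correlation of -0.48, and across 16207 genes -0.41. These points come from the same 6 libraries and are not independent. With the trend in GC content and merged exon length removed from each library, 10 members rose and 4 fell, against 17.5% and 12.2% of all genes (29.7% in all). BAX and BOK then joined those that rose, and BAD, BBC3, FADD and XIAP no longer passed. Corrected values are given below beside each member whose call changed.

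**Figure D1:**
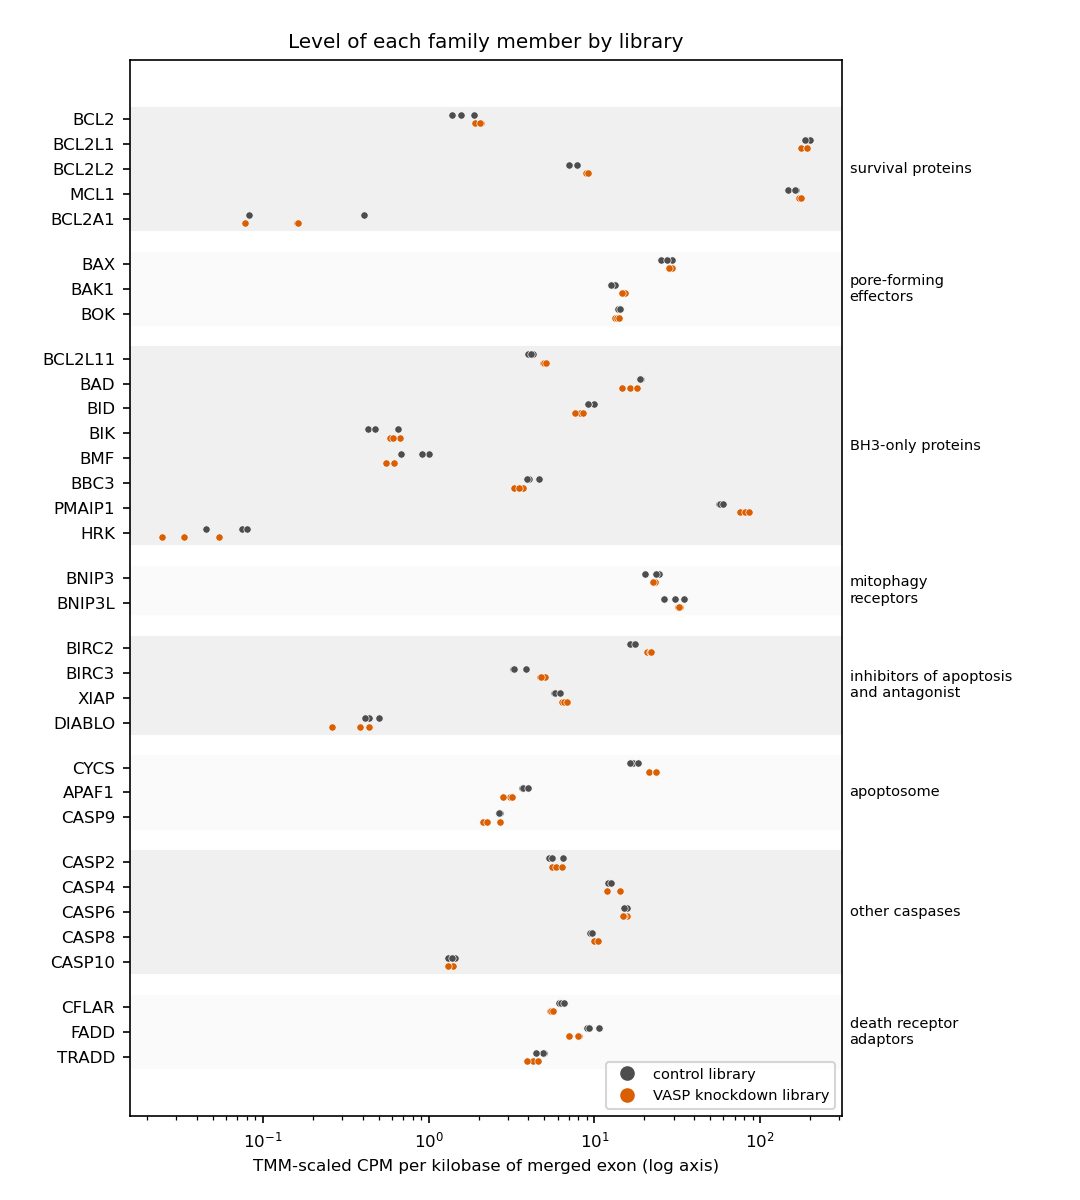
Level of each of the 33 members in each library, as TMM-scaled CPM per kilobase of merged exon on a log axis; each point is 1 library (3 control, 3 VASP knockdown), and the control library with 0 counts of BCL2A1 is not drawn. BCL2L1 and MCL1 stand highest in both groups, and the points of PMAIP1, BIRC2, BIRC3 and CYCS do not overlap between the groups.

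Among the survival proteins BCL2 and BCL2L2 rose, and the far more abundant BCL2L1 and MCL1 did not pass the test. BCL2, the founding member of the family, had 542, 470 and 640 counts in control and 751, 666 and 703 in knockdown libraries. The lowest knockdown library lay above the highest control library, and the level was 1.25-fold higher (log2 change 0.32 ± 0.09 SE, edgeR adjusted p = 0.0068). That call was lost without the second control library (adjusted p = 0.0622), which held the fewest BCL2 counts. BCL2L2, which encodes BCL-w, went from 963, 857 and 950 counts to 1176, 1100 and 1131, 1.196-fold higher (log2 change 0.26 ± 0.06 SE, edgeR adjusted p = 0.0015). Its groups did not overlap. The gene shares 24.3% of its exon length with other symbols, the readthrough BCL2L2-PABPN1 and PPP1R3E among them, and neither of these passed the test.

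BCL2L1 had 18417, 19184 and 17908 counts in control and 17897, 18843 and 18590 in knockdown libraries, and the groups overlapped. Its log2 fold change was -0.04, with a 95% interval from 0.90-fold to 1.04-fold of control (edgeR adjusted p = 0.53). MCL1, a short-lived protein that holds BAK1 and binds NOXA, had 18704, 20965 and 20454 counts against 22956, 22129 and 22479. Every knockdown library was above every control library, with a log2 fold change of 0.13 (SE 0.05, edgeR adjusted p = 0.059), and so MCL1 missed the threshold. It passed with DESeq2 (adjusted p = 0.0409), with edgeR on library totals without TMM (adjusted p = 0.0312), with no low-count filter (adjusted p = 0.0132), and without the second (adjusted p = 0.0479) or the third control library (adjusted p = 0.0408).

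Per kilobase of exon, BCL2L1 stood at 192 ± 6.60 CPM (SD, n = 3) and MCL1 at 158 ± 9.95 CPM in control cells, against 7.59 ± 0.465 CPM for BCL2L2 and 1.61 ± 0.253 CPM for BCL2. In the summed RNA of the 5 survival proteins, BCL2L1 made up 54.9%, 53.4% and 52.1% of the control libraries and 49.1%, 51.4% and 50.6% of the knockdown libraries. MCL1 made up 42.3%, 44.3% and 45.2%, then 47.8%, 45.7% and 46.4%. The 2 thus held nearly all of it, and the rise of BCL2 was a change from 0.450% to 0.544% of the sum. BCL2L1 shares 43.0% of its exon length with the antisense gene ABALON, and fragments in shared bases were not counted for either. With the unshared length in its place, the control share of BCL2L1 was 66.5% and that of MCL1 31.2%.

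Of the pore-forming effectors, BAK1 rose. It had 845, 851 and 807 counts in control and 1022, 1005 and 949 in knockdown libraries, which did not overlap, and was 1.16-fold higher (log2 change 0.21 ± 0.06 SE, edgeR adjusted p = 0.0068). BAX had 1910, 2208 and 2061 counts against 2231, 2239 and 2155, and BOK, an effector that does not need BH3-only proteins, had 1084, 1083 and 1109 against 1095, 1077 and 1108. Both overlapped between groups, with log2 fold changes of 0.06 (edgeR adjusted p = 0.42) and -0.04 (edgeR adjusted p = 0.62). Their transcripts are rich in GC, at 58.9% and 65.98%. With GC content and length corrected, the log2 fold changes became 0.20 for BAX (edgeR adjusted p = 0.0044) and 0.23 for BOK (edgeR adjusted p = 0.0061). All 3 effectors then passed as higher, beside 17.5% of all genes. Per kilobase, control cells held 27.4 ± 2.07 CPM of BAX, 14.03 ± 0.238 CPM of BOK and 12.99 ± 0.339 CPM of BAK1 (SD, n = 3).

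**Figure D2:**
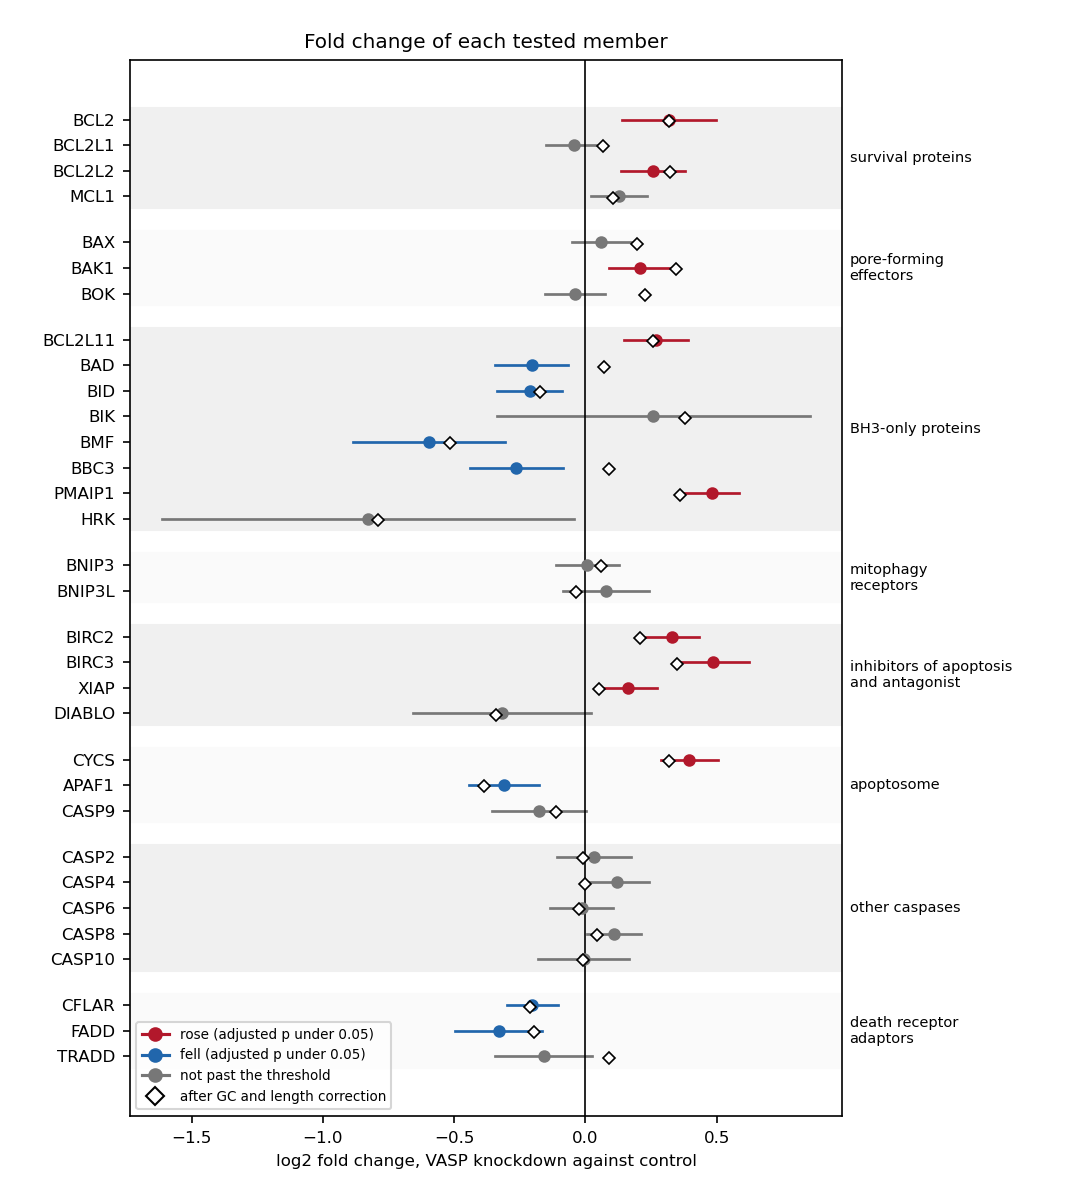
Log2 fold change of VASP knockdown against control for the 32 tested members, grouped by role; circles with 95% intervals are the edgeR values, coloured by call, and open diamonds are the values after the GC and length correction. Of the BH3-only proteins PMAIP1 and BCL2L11 lie to the right of zero by both values, while BAD and BBC3 cross zero after the correction.

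The BH3-only proteins moved in both directions. Of 8 members 2 rose (PMAIP1 and BCL2L11) and 4 fell (BMF, BID, BAD and BBC3), or 75%, beside 37.2% of all tested genes. After the GC and length correction 2 rose and 2 fell, or 50%, beside 29.7% of all genes. PMAIP1, which encodes NOXA, the partner of MCL1, showed the smallest p of the 33 genes. Its counts were 3669, 3691 and 3865 in control and 5163, 5326 and 5618 in knockdown libraries. The groups lay far apart compared with the spread within them, and the level rose from 128.9 ± 4.17 to 179.9 ± 11.5 CPM (SD, n = 3), 1.40-fold (log2 change 0.48 ± 0.05 SE, edgeR adjusted p = 1.5e-07). Corrected for GC content and length, the log2 fold change was 0.36 (edgeR adjusted p = 4.9e-06). The gene lies on chromosome 18 from 59899948 to 59904306 (GRCh38, plus strand), and none of its exon bases are shared.

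BCL2L11, which encodes BIM, a protein that binds every major survival protein, had 773, 827 and 799 counts in control and 996, 971 and 1005 in knockdown libraries. It did not overlap between groups and was 1.21-fold higher (log2 change 0.27 ± 0.06 SE, edgeR adjusted p = 0.001). BMF, which like BIM binds a dynein light chain, fell by the largest factor of the called members. It had 160, 144 and 108 counts against 92, 100 and 88, 1.51-fold lower (log2 change -0.60 ± 0.14 SE, edgeR adjusted p = 0.0018), and the third control library stood nearest to the knockdown range.

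BID, which caspase-8 cuts into an activator of BAX and BAK, had 1291, 1184 and 1181 counts in control and 1123, 1128 and 996 in knockdown libraries (1.16-fold lower, log2 change -0.21 ± 0.06 SE, edgeR adjusted p = 0.0071). That call was lost without the third knockdown library (adjusted p = 0.0625). BAD, a sensor of growth factor signalling that binds BCL-xL, had 952, 928 and 931 counts against 863, 911 and 736. It was 1.15-fold lower (log2 change -0.20 ± 0.07 SE, edgeR adjusted p = 0.019), with the third knockdown library the lowest. Its adjusted p was 0.0552 without the first control library, 0.0574 without the second control library, 0.0513 without the first knockdown library and 0.173 without the third knockdown library. Corrected for GC content and length, BAD had a log2 fold change of 0.07 (edgeR adjusted p = 0.43), the other direction. It shares 23.7% of its exon length with GPR137.

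BBC3, which encodes PUMA, a target of p53, had 373, 429 and 363 counts in control and 364, 306 and 329 in knockdown libraries. On the CPM scale the groups did not overlap, and it fell (log2 change -0.26 ± 0.09 SE, edgeR adjusted p = 0.019). The call was lost without the second control library (adjusted p = 0.147) or the second knockdown library (adjusted p = 0.121). With a GC content of 69.7%, the highest of the members, BBC3 had a corrected log2 fold change of 0.09 (edgeR adjusted p = 0.42). HRK, a BH3-only gene best known from neurons, had 15, 9 and 16 counts against 7, 5 and 11, and BIK had 12, 18 and 13 against 17, 19 and 17. Both were near the lower limit of what was tested, with adjusted p of 0.09 and 0.52 in edgeR. HRK passed without the third knockdown library (adjusted p = 0.0472).

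On the scale of CPM per kilobase, PMAIP1 was the most abundant BH3-only RNA, at 57.7 ± 1.87 in control and 80.5 ± 5.13 in knockdown cells (SD, n = 3), followed in control by BAD at 18.9 ± 0.188, BID at 9.44 ± 0.444, BBC3 at 4.21 ± 0.388 and BCL2L11 at 4.14 ± 0.153. The last of these, BBC3 and BCL2L11, did not differ beyond their spread. PMAIP1 made up 59.3%, 59.7% and 61.5% of the summed RNA of the 8 genes in control libraries and 68.6%, 69.1% and 72.7% in knockdown libraries. BAD went from 19.7 ± 0.381% to 14.3 ± 1.61% and BID from 9.86 ± 0.558% to 7.11 ± 0.553% of that sum, while BCL2L11, at 4.32 ± 0.152% and 4.35 ± 0.110%, overlapped between groups. A higher PMAIP1 lowers the shares of the other genes, so these shares do not measure the change of each gene alone. They were not corrected for GC content. With unshared exon length the control share of PMAIP1 was 56.3%.

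**Figure D3:**
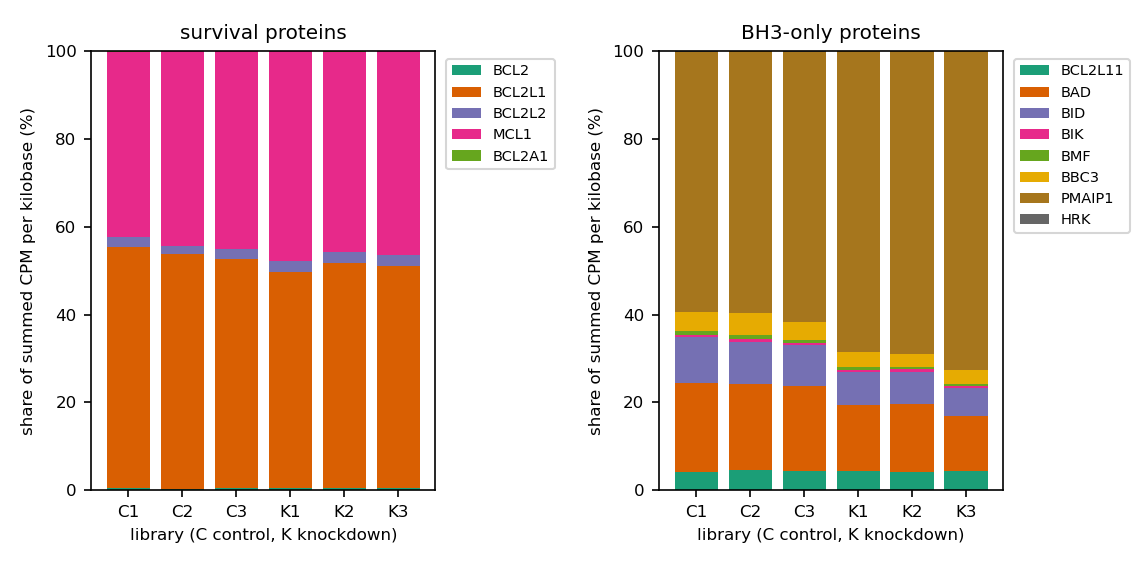
Share of each gene in the summed TMM-scaled CPM per kilobase of the survival proteins (left) and of the BH3-only proteins (right), in percent, for control libraries C1 to C3 and knockdown libraries K1 to K3; each bar adds to 100%. BCL2L1 and MCL1 fill nearly the whole left bars, and on the right PMAIP1 takes 59.3% to 61.5% of the control and 68.6% to 72.7% of the knockdown bars.

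The mitophagy receptors BNIP3 and BNIP3L, which tether mitochondria to the autophagy machinery and respond to low oxygen, did not pass the test. BNIP3 had 3821, 3648 and 3120 counts in control and 3790, 3634 and 3518 in knockdown libraries, and BNIP3L 4200, 3673 and 3172 against 4150, 3937 and 3917. In both genes the third control library was the lowest of all 6, and the control libraries spread more widely than the knockdown libraries. Their 95% intervals ran from 0.92-fold to 1.09-fold and from 0.94-fold to 1.18-fold of control. BNIP3L passed without the first control library (log2 fold change 0.18, edgeR adjusted p = 0.0183).

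All 3 inhibitors of apoptosis in the set rose, beside 18.9% of all tested genes, although XIAP did not pass after the GC and length correction. BIRC2 and BIRC3 encode cIAP1 and cIAP2, ubiquitin ligases of TNF receptor complexes, and lie side by side on chromosome 11, BIRC3 from 102317450 to 102339403 and BIRC2 from 102347211 to 102378670 (GRCh38, both on the plus strand). BIRC3 had 847, 703 and 709 counts in control and 1076, 1116 and 1057 in knockdown libraries. The groups were well apart, and the level went from 25.9 ± 2.69 to 36.3 ± 1.36 CPM (SD, n = 3), 1.40-fold (log2 change 0.48 ± 0.07 SE, edgeR adjusted p = 6.8e-06). BIRC2 had 2276, 2146 and 2295 counts against 2887, 2883 and 2917, with no overlap, and was 1.26-fold higher (log2 change 0.33 ± 0.05 SE, edgeR adjusted p = 1.4e-05). Once corrected for GC content and length, the log2 fold changes were 0.35 for BIRC3 (edgeR adjusted p = 0.00068) and 0.21 for BIRC2 (edgeR adjusted p = 0.0013).

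XIAP, the inhibitor that binds caspase-9 directly, had 1497, 1511 and 1619 counts in control and 1769, 1742 and 1810 in knockdown libraries. It was 1.12-fold higher without overlap (log2 change 0.16 ± 0.05 SE, edgeR adjusted p = 0.021). The call was lost without the first control (adjusted p = 0.0756), the second control (adjusted p = 0.0778) or the third knockdown library (adjusted p = 0.104). Its corrected log2 fold change was 0.05 (edgeR adjusted p = 0.45). DIABLO, which encodes the antagonist that mitochondria release to displace XIAP from caspases, had 89, 102 and 83 counts against 93, 54 and 79. The groups overlapped and the log2 fold change of -0.32 did not pass (edgeR adjusted p = 0.13). Because 32.2% of its exon length is shared with other symbols, fragments of DIABLO were lost to the count. Per kilobase, control cells held 17.01 ± 0.612 CPM of BIRC2, 5.89 ± 0.276 CPM of XIAP and 3.45 ± 0.358 CPM of BIRC3.

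The apoptosome genes went in opposite directions. CYCS, which encodes cytochrome c, an electron carrier until it leaves the mitochondrion, rose from 2232, 2121 and 2375 counts to 2936, 3098 and 3070. The groups did not overlap, and the level was 77.2 ± 4.53 CPM in control and 101.7 ± 5.16 CPM in knockdown cells (SD, n = 3), 1.32-fold higher (log2 change 0.40 ± 0.05 SE, edgeR adjusted p = 4.3e-06). The corrected log2 fold change was 0.32 (edgeR adjusted p = 5.9e-05). Cytochrome c has many processed pseudogenes, and fragments that align equally well to a copy were not counted. APAF1, the scaffold of the apoptosome, fell from 844, 846 and 909 counts to 756, 659 and 741, 1.24-fold (log2 change -0.31 ± 0.07 SE, edgeR adjusted p = 6.0e-04). Its GC content, 41.7%, is close to that of CYCS, 41.6%, and the corrected log2 fold change was -0.39 (edgeR adjusted p = 7.3e-05).

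CASP9, the caspase that the apoptosome activates, had 409, 413 and 403 counts in control and 344, 421 and 349 in knockdown libraries. By TMM-scaled CPM the second knockdown library and the highest control library were both at 14.24, and the other knockdown libraries, at 11.2 and 11.9, lay below all controls (13.9 to 14.2). The log2 fold change of -0.18 did not pass (edgeR adjusted p = 0.11). Without the second knockdown library it did (log2 fold change -0.27, adjusted p = 0.0227). Of the summed RNA of the 3 genes per kilobase, CYCS made up 72.9 ± 0.823% in control and 80.8 ± 0.412% in knockdown libraries, APAF1 15.9 ± 0.301% and 10.8 ± 0.999%, and CASP9 11.3 ± 0.651% and 8.36 ± 0.826% (SD, n = 3). Here too, a higher CYCS lowers the shares of APAF1 and CASP9.

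None of the other 5 caspases in the set passed with edgeR. CASP8, the initiator caspase of death receptors, had 2000, 1966 and 2032 counts in control and 2290, 2122 and 2239 in knockdown libraries. These did not overlap, but the log2 fold change of 0.11 missed the threshold (edgeR adjusted p = 0.089). CASP4, the receptor for intracellular lipopolysaccharide, had 2408, 2344 and 2441 counts against 2436, 2810 and 2778, where by TMM-scaled CPM the first knockdown library (79.4) lay below the control libraries (80.8 to 84.4) and the other two above them (94.6 and 95.1). Its log2 fold change of 0.12 had an adjusted p of 0.12 in edgeR, which became 0.00849 without the first knockdown library (log2 fold change 0.20) and 0.045 with no low-count filter. CASP2, CASP6 and CASP10 overlapped between groups, with log2 fold changes of 0.03, -0.01 and -0.01. Their 95% intervals ran from 0.93-fold to 1.13-fold, from 0.91-fold to 1.08-fold and from 0.88-fold to 1.12-fold of control. Before any adjustment, edgeR gave CASP8 a p of 0.0384, the one value under 0.05 among the 5, and DESeq2 called none of them. CASP6 shares 5.04% of its exon length with MCUB, which fell with a log2 fold change of -0.95 (edgeR adjusted p = 3.5e-12).

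CFLAR, CASP10 and CASP8 lie in a row on chromosome 2, from 201116154 to 201287711 (GRCh38, plus strand). CFLAR encodes FLIP, a caspase-8 relative without enzyme activity that takes its place at the receptor. It fell from 3999, 4127 and 4240 counts to 3706, 3630 and 3719, 1.15-fold, with no overlap (log2 change -0.20 ± 0.05 SE, edgeR adjusted p = 0.0016). Its antisense neighbour CFLAR-AS1, which shares exon bases with it, had 46, 40 and 64 counts against 34, 32 and 39 and also fell (log2 fold change -0.55, edgeR adjusted p = 0.037).

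FADD, the adaptor between death receptors and caspase-8, had 488, 497 and 565 counts in control and 456, 383 and 429 in knockdown libraries. It was 1.26-fold lower without overlap (log2 change -0.33 ± 0.08 SE, edgeR adjusted p = 0.0022), and its corrected log2 fold change was -0.19 (edgeR adjusted p = 0.085). Another annotated symbol, with 0 counts in all libraries, covers 54.9% of its exon length, so fragments in those bases were counted for neither. TRADD, the adaptor of TNF receptor 1, had 313, 309 and 278 counts against 283, 294 and 252. It overlapped between groups (log2 fold change -0.16, edgeR adjusted p = 0.17), and its corrected value of 0.09 had the opposite sign. Per kilobase of merged exon, FADD stood at 9.67 ± 0.823, CFLAR at 6.32 ± 0.212 and TRADD at 4.75 ± 0.288 CPM in control cells (SD, n = 3). This scale understates FADD, given its shared bases. In the summed RNA of these adaptors, the mean control share of FADD was 46.6% with merged and 64.2% with unshared exon length. That of CFLAR was 30.5% and 21.5%, and that of TRADD 23.0% and 14.3%.

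The other genes of the death pathways were described by 5 lists with 99 genes in all. Of these 98 were found by symbol, all but MARCHF5, and 90 were tested. In these 24 genes rose and 15 fell, or 43.3%, beside the 37.2% of all genes. Corrected for GC content and length, 22 rose and 7 fell, or 32.6%, beside 29.7% of all genes (17.5% higher and 12.2% lower). With the test against 1.2-fold 1 rose and 2 fell, or 3.33%, beside 5.73% of all genes. These shares of all genes stand beside the counts of each list below.

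Among the death receptors, ligands and adaptors 3 rose and 5 fell of 19 tested (5 and 2 after the correction), with a median log2 fold change of -0.03. TNFRSF1A, the main TNF receptor, had 10111, 9600 and 8400 counts in control and 7881, 8060 and 7325 in knockdown libraries, 1.24-fold lower (edgeR adjusted p = 2.1e-04). TNFRSF10B, the TRAIL receptor DR5, had 6587, 6348 and 6138 against 5937, 5379 and 5186, 1.19-fold lower (edgeR adjusted p = 2.8e-04). FAIM, an inhibitor of FAS signalling, had 465, 488 and 561 against 647, 611 and 687, 1.25-fold higher (edgeR adjusted p = 0.0022). In all 3 the groups did not overlap, and all 3 passed in the same direction after the correction.

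Of 22 tested mitochondrial factors and channels 8 rose and 2 fell (6 and 0 after the correction), with a median log2 fold change of 0.05. BCLAF1, a nuclear protein first found as a BCL2 partner, had 3403, 3098 and 3314 counts in control and 4181, 4254 and 4456 in knockdown libraries, 1.28-fold higher (edgeR adjusted p = 1.0e-05). OPA1, the fusion protein that keeps cristae closed around cytochrome c, had 3604, 3398 and 3538 against 4409, 4400 and 4537, 1.23-fold higher (edgeR adjusted p = 3.2e-05). BAG4, a cochaperone that silences death receptors, was 1.19-fold higher (edgeR adjusted p = 0.0017), and missed the threshold after the correction (edgeR adjusted p = 0.050).

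The list of execution, DNA fragmentation and further inhibitors had 6 genes higher and 2 lower of 16 tested (4 and 1 after the correction, with 15 tested), at a median log2 fold change of 0.07. API5, an antagonist of apoptosis, had 4979, 4733 and 5105 counts in control and 6590, 6374 and 6500 in knockdown libraries, 1.28-fold higher without overlap (edgeR adjusted p = 3.7e-06). BIRC7, an inhibitor of apoptosis outside the 33 genes, had 71, 71 and 51 counts against 26, 29 and 27. It was 2.41-fold lower (edgeR adjusted p = 2.4e-05), opposite to BIRC2, BIRC3 and XIAP.

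Of 19 transcription factors known to act on BCL2 family genes 4 rose and 3 fell (4 and 1 after the correction). JUN had 5648, 6146 and 5804 counts in control and 4300, 4371 and 4159 in knockdown libraries, 1.41-fold lower without overlap (edgeR adjusted p = 4.4e-08). HIF1A, which drives BNIP3 in low oxygen, was 1.22-fold higher (edgeR adjusted p = 5.2e-04), and CREB1, which binds the cyclic AMP response element, 1.17-fold higher (edgeR adjusted p = 0.0028). After the correction HIF1A had an adjusted p of 0.067 and CREB1 of 0.11 in edgeR, so neither passed.

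Of the regulators of stability and activity 14 were tested, with 3 higher and 3 lower, also after the correction. GSK3B, the kinase that marks MCL1 for destruction, had 2499, 2356 and 2381 counts in control and 2169, 1937 and 1953 in knockdown libraries, 1.23-fold lower (edgeR adjusted p = 6.5e-05). DYNLL2, the dynein light chain that binds BMF, was 1.14-fold lower (edgeR adjusted p = 0.0032), and BECN1, an autophagy protein with a BH3 domain, 1.14-fold higher (edgeR adjusted p = 0.0034). In these 3 genes the groups did not overlap.

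**Figure D4:**
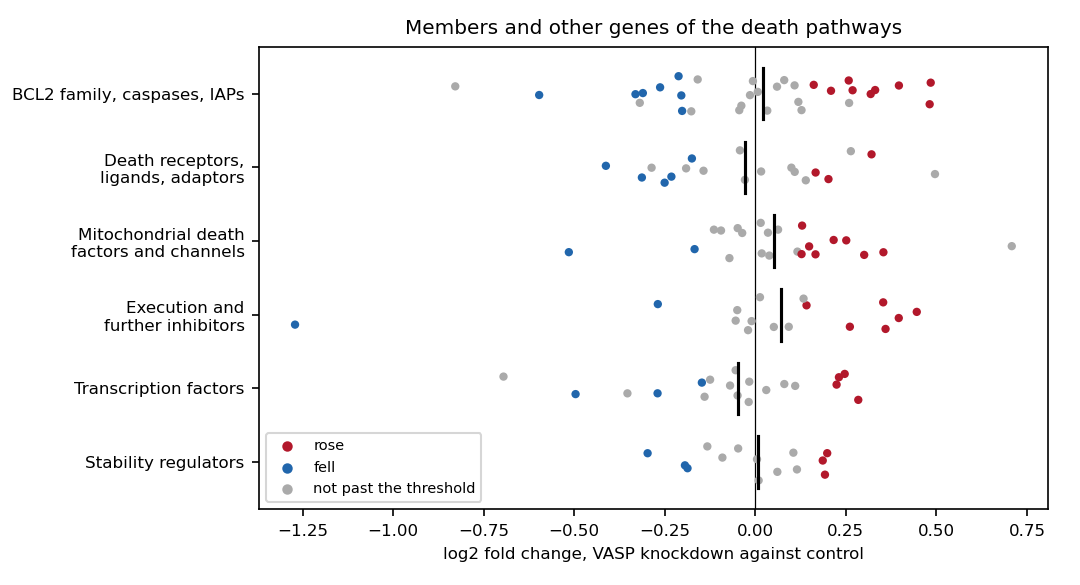
Log2 fold change of VASP knockdown against control for the 32 tested members (top row) and the tested genes of the 5 pathway lists; each point is a gene, coloured by its edgeR call, and the black bar is the median of the row. The medians lie between -0.05 and 0.07, and BIRC7 is the point farthest to the left.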

How the data were processed

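Total RNA of 6 libraries, 3 per group, was sequenced in paired-end mode. The values the authors deposited are raw counts: whole numbers of fragments for each gene symbol. Per the file headers, featureCounts 1.6.4 counted exons of GENCODE release 32 on GRCh38, with patches and alternate sequences, and no strand or multi-mapping option was set. Strand was therefore ignored. Fragments in exon bases shared by several symbols were not counted, which is a separate setting of featureCounts. The submitters' processing notes also name Trim Galore 0.6.4 and STAR 2.7.1a. Per the file headers, another deposited column holds the merged exon length in bases.

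Here edgeR 4.0.16 (R 4.3.3) was run with TMM, filterByExpr and the robust quasi-likelihood test, with Benjamini-Hochberg adjustment over 16633 genes and a threshold of 0.05. The biological coefficient of variation was 4.81%. SE is the log2 fold change divided by the root of F. Levels are CPM per kilobase of merged exon. GC content came from the longest transcript in GENCODE 29, for 97.4% of tested genes, and length was the deposited merged exon length. The trends in both (splines with 5 degrees of freedom) were removed as offsets. The script was tested on simulated data, with larger changes than most called members showed and no trend in GC content. That test does not bear on smaller changes. Alternatives were DESeq2 1.42.0, no TMM, 2 other filters, a test against 1.2-fold and leaving out each library.

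The 33 members and all lists were chosen with earlier results of these data known. Every member was named, with VASP and up to 3 genes with the smallest p of each pathway list, of which 1 is not reported here. Whether the libraries are separate cultures is not stated in the labels. The names of all 3 control columns extend the title of 1 control sample by a further number, so these libraries may be repeats of 1 culture, and the control SDs and n = 3 are to be read with that limit. If the libraries of a group are not separate cultures, the p-values describe technical spread alone, since they rest on how far those libraries differ. Control libraries are numbered in table order.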

Additional observations from a re-analysis of the deposited data

How the results depend on the processing

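No paired analysis was possible because the control columns carry no replicate number of a sample. Against a fold change of 1.2, the calls were 953 over all genes (5.73%), 3 members (3 higher, 0 lower) and 3 genes of the pathway lists (1 higher, 2 lower). After the GC and length correction 4 members and 7 pathway genes were lower, beside 12.2% of all genes. Leaving out 1 library gave 13 to 17 members called (8 to 10 higher, 5 to 7 lower) and 4481 to 6399 genes in all. With unshared exon length the control shares were 66.5% for BCL2L1, 31.2% for MCL1 and 56.3% for PMAIP1. BCL2L1 shares 43.0% of its exon length with another symbol, and of the BH3-only genes BAD, which went from 19.7% to 24.2% of their sum, shares 23.7%.

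The log2 fold change turned its sign after the GC and length correction in 8 members: BCL2L1 (0.0655), BOK (0.227), BAD (0.0718), BBC3 (0.0885), BNIP3L (-0.0341), CASP2 (-0.0092), CASP4 (-0.0013) and TRADD (0.088). Without TMM it turned for CASP6 (0.0102) and CASP10 (0.0178), and with no low-count filter for the same pair (0.0066 and 0.0147). Leaving out 1 library at a time, the log2 fold change ran from -0.0714 to 0.0651 for BNIP3, from -0.0136 to 0.1824 for BNIP3L, from -0.0206 to 0.1197 for CASP2, from -0.0324 to 0.0038 for CASP6 and from -0.0408 to 0.0256 for CASP10, none of them called in all libraries together. The correction removes the trend in base composition and length from each library, and the cause of that trend was not tested. The cause of the other sign changes was not tested either. HRK, BIK and BCL2A1 had at most 19 counts in any library, which limits what could be seen for them.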
